A study of Capra hircus with 12 samples.

Results

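The miR-379 to miR-656 cluster is a run of miRNA genes within the imprinted DLK1-DIO3 region, and its mature miRNAs were followed here over the year in secondary hair follicles (SHFs) of the cashmere goat. Members were taken by name, as every mature miRNA whose number belongs to a precursor of the cluster, with all arms and lettered copies. This gave 36 of the 376 miRNAs quantified, from 30 precursors, of which 11 are named as 5p arms and 17 as 3p arms and 8 carry no arm in their name. All 30 precursors were found on chromosome 21 among the RefSeq genes of goat assembly ARS1.2, which gave their order from miR-379 to miR-656. Whether other genes lie between them was not examined. The deposited reads were mapped to another build, CHIR_2.0, so no coordinates are given.

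In placental mammals the miRNAs of this cluster are cut from a long noncoding transcript that is made from the maternally inherited chromosome, while DLK1 and DIO3 at the edges of the region are expressed from the paternal one. The miRNAs therefore arise from shared precursor transcripts, but each hairpin is processed and each mature strand is stabilised on its own. The cluster is known from brain, placenta, embryonic muscle and cultured mesenchymal cells, and the wider region holds the callipyge mutation of sheep, which changes muscle growth.

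The samples were 12 small RNA libraries of SHFs, the follicles that grow the cashmere, dissected from scapular skin of Liaoning cashmere goats aged 1.5 years, with 1 female and 1 male library in each of 6 months and no treatment. February and March represented telogen, the resting phase (4 libraries). May represented early anagen, when growth restarts (2 libraries), and September mid-anagen (2 libraries). November and December represented catagen, the phase of regression (4 libraries). How goats were combined into libraries is not given in the labels, so p-values measure the spread between these libraries only. Each library held between 3135292 and 5788032 counts on miRNAs, with a median of 4469051. Because a SHF library is a bulk sample, fewer cells that make a miRNA and less miRNA per cell cannot be told apart.

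The miRNAs used to check the tissue were abundant in every library. The 6 epidermal miRNAs of the list (led by miR-203) summed to 56735 to 96687 TPM. Most of that sum is miR-203, with a mean of 63230 TPM. The study's in situ hybridization found miR-203 in the hair shaft, so the epidermal sum is not a measure of epidermis alone. The 9 listed for dermal mesenchyme (led by miR-143-3p) summed to 118318 to 148888 TPM. Most of the latter sum is miR-143-3p, with a mean of 89982.5 TPM. The study's in situ hybridization found miR-143-3p in the SHF matrix, so that sum is not a measure of mesenchyme alone. TPM, as deposited, is the count of a miRNA as a share of all miRNA counts of the library, brought to one common library size. Skeletal muscle miRNAs (6, led by miR-1) were also present, at 1902 to 3614 TPM, beside 393 to 664 TPM of leukocyte miRNAs (4) and 8819 to 12699 TPM of endothelial ones (2). The 2 erythrocyte miRNAs, miR-144-5p and miR-451-5p, ranged from 5.41 to 115 TPM and are given below beside the results they move with.

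The cluster was a minor part of the SHF miRNAs, with a mean of 0.0887% of all counts in a library. miR-379-5p, the first miRNA of the cluster and one linked to dendrite growth in neurons, supplied 53.9% of the cluster's counts, and the 5 leading members together supplied 77.0%. With a mean of 471 TPM it ranked 80 of 376 miRNAs. It was followed by miR-494 (mean 72.7 TPM), miR-411a-5p (64.2 TPM), miR-369-3p (50.8 TPM) and miR-380-3p (22.2 TPM). A single member had a mean over 100 TPM, and 21 had a mean under 10 TPM. These levels rank the members as counted. Mature miRNAs are of nearly the same length, but unequal capture in library preparation makes comparisons between members uncertain.

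Low counts limit the lower part of the cluster. 16 members had at least 10 counts in every library and 18 had fewer than 10 in some. The other 2, miR-376a and miR-543-3p, stayed below 10 counts in all 12 libraries. Of the 432 values, 141 were below 10 counts and 8 were 0, where a count of 0 allows up to 0.518 to 0.957 TPM (3 counts) depending on the library. The reads carry no molecular identifiers, so these floors and the intervals below cover counting error only. The map of members by library marks each value below 10 counts with a point.

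**Figure D1:**
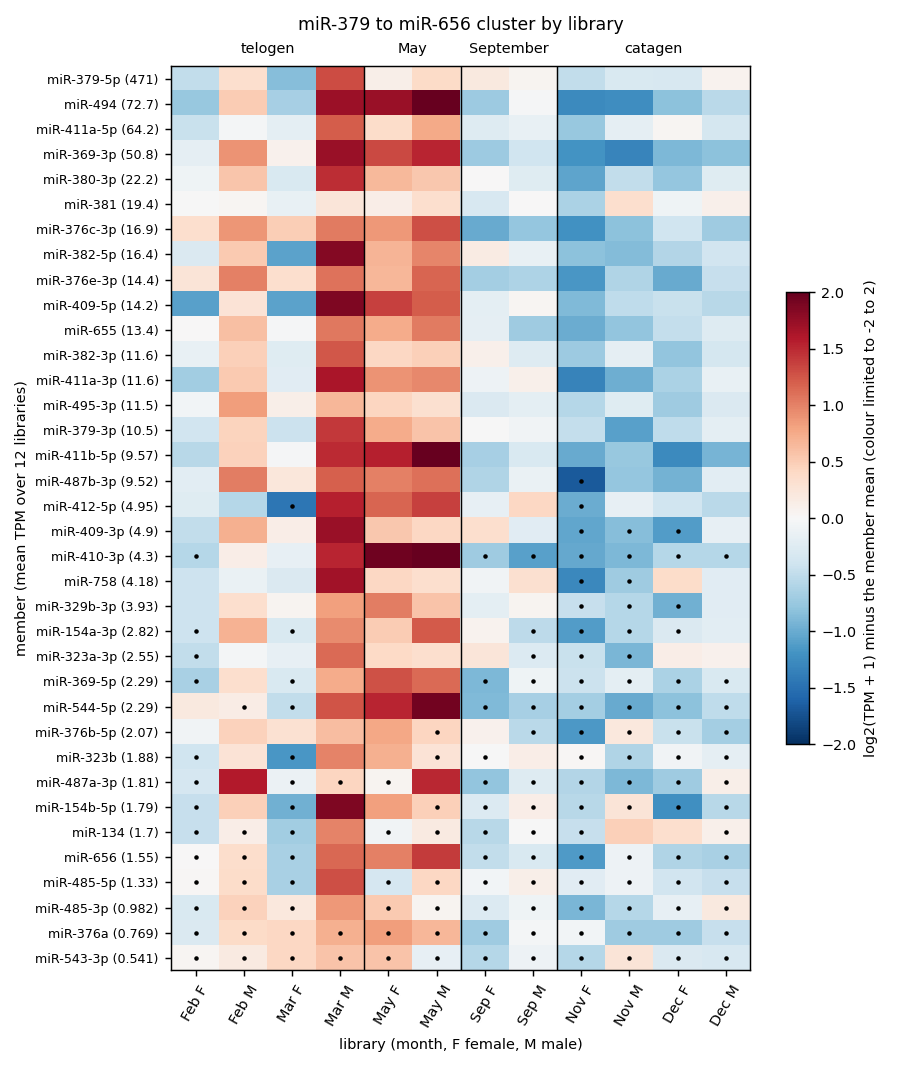
Level of each of the 36 members (rows, ordered by mean TPM, given in parentheses) in each of the 12 libraries (columns, by month and sex), as log2(TPM + 1) minus the member's own mean, with points on values below 10 counts. Red, above the mean, gathers in the male March and both May libraries, and blue, below it, in September, November and December, while miR-381 stays near its mean.

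As a share of all counts, the cluster took 0.0587% in the female February library (95% Wilson interval 0.0567% to 0.0607%), 0.105% in the male February library, 0.0538% in the female March library and 0.203% in the male March library (0.198% to 0.207%). The May libraries held 0.118% (female) and 0.140% (male) and the September libraries 0.0767% and 0.0751%. From November to December the share lay between 0.0476% (female November, 0.0454% to 0.050%) and 0.0713% (male December). Both May libraries were above all 6 libraries of September to December. The 4 telogen libraries overlapped every other group, because both male telogen libraries were above both female ones.

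The summed level was 1289 ± 158 TPM in May (SD, n = 2), 759 ± 11.6 TPM in September (n = 2), 587 ± 97.0 TPM in catagen (n = 4) and 1050 ± 691 TPM in telogen (n = 4). From May to September the log2 difference of the sums was -0.76. After TMM normalization, which adjusts library totals for a few miRNAs that take up many counts, it was -0.23, since the TMM factors were 1.25 and 1.29 in May but 0.848 and 0.912 in September. Without miR-379-5p it was -1.45 in TPM and -0.92 after TMM normalization. The most abundant member and the remaining 35 therefore have to be described apart.

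The 35 other members summed to 703 and 830 TPM in May but to 264 and 298 TPM in September. They summed to between 164 and 254 TPM in the catagen libraries, and to 275, 499, 295 and 950 TPM in the female February, male February, female March and male March libraries. Per miR-379-5p in the same library, a ratio that does not depend on how libraries are scaled, they stood at 1.48 and 1.46 in May, at 0.524 and 0.657 in September and at 0.526 to 0.672 in catagen. In telogen the ratio was 0.881, 0.906, 1.21 and 0.881. The 4 phases thus formed 3 levels that did not overlap, with May on top, telogen in between and September together with catagen at the bottom. At 0.881, the male March library equalled the female February library at the low end of telogen.

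**Figure D2:**
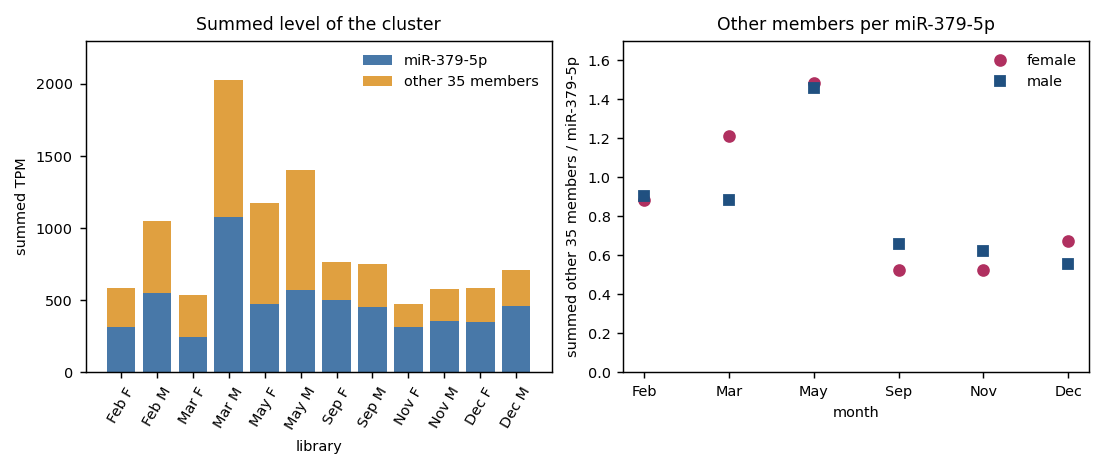
Left, summed TPM of the cluster in each library (month, F female, M male), divided into miR-379-5p and the 35 other members. Right, summed TPM of the 35 others divided by that of miR-379-5p, by month and sex, which lies at 1.46 and 1.48 in May, between 0.881 and 1.21 in telogen and under 0.68 from September to December.

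Followed by month, the members had their highest means in the same part of the year. In TPM, 36 of 36 had their highest monthly mean in February, March or May, against 74.5% of all 376 miRNAs. The highest month was May for 20 members (43.4% of all miRNAs), March for 15 (20.5%) and February for 1. After TMM normalization 34 of 36 did, against 53.5%. The lowest month was November or December for 33 of 36 members, against 44.4% of all miRNAs. Both May libraries were above both September libraries for 32 of 36 members in TPM (57.4% of all miRNAs) and for 22 of 36 after TMM normalization (34.3%). Both were above all 6 libraries of September to December for 28 of 36 members in TPM (45.2%) and for 19 after TMM normalization (23.7%). Members of one transcript in the same libraries are not independent of each other, so these counts describe the cluster and carry no test.

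Differences between phases were tested over all miRNAs with edgeR's quasi-likelihood test. The test took in miRNAs above 5 CPM in 2 or more libraries, where CPM is the share of the library's counts on the scale of TPM. A miRNA was called differentially expressed (DE) where the FDR (Benjamini-Hochberg) was below 0.05 and the fold change reached 2. Of the 36 members, 26 were tested, among 300 miRNAs. The filter can favour members that are high in a single phase: 7 of the 26 had no September or catagen library above the limit, and 11 had all 12. The 10 members left out were therefore followed in a fit without the filter. Over the 6 phase comparisons 12 members were called, and within each comparison all calls pointed the same way.

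From early anagen to mid-anagen, 8 of 26 tested members fell and none rose, where 8.67% of all tested miRNAs fell and 9.67% rose. The 8 were miR-494, miR-369-3p and its partner strand miR-369-5p, miR-376c-3p and miR-376e-3p, miR-411b-5p, miR-410-3p and miR-544-5p. Among them, miR-369-5p, miR-410-3p and miR-544-5p had no September or catagen library above the filter's limit, and miR-369-5p passed through May libraries alone. The fit without the filter called 8 of 36 members lower, against 9.04% of 376 miRNAs. With at least 10 counts required in all 12 libraries, 5 of 16 tested members fell, where 11.7% of 266 miRNAs fell. The median log2 fold change was -0.65 over all 36 members in that fit, and 0.00 over all miRNAs.

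miR-494, the second most abundant member, stood at 169 and 218 TPM in the May libraries (female, male) and at 30.2 and 49.8 TPM in the September libraries. It stood at 29.5, 72.5, 31.6 and 168 TPM in telogen and at 20.3, 20.9, 28.2 and 34.4 TPM in catagen. Of the other months only the male March library came near the May level. Between May and September it fell by a log2 fold change of -1.75 ± 0.60 (SE, FDR = 0.0395), and this call was lost in 6 of the fits that left out 1 library.

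miR-369-3p is known for binding an AU-rich element in a cytokine mRNA. It had 97.4 and 112 TPM in May, 22.8 and 28.7 TPM in September, 33.9, 72.5, 40.7 and 129 TPM in telogen and 16.2, 14.7, 20.2 and 21.4 TPM in catagen. The May and September libraries did not overlap, and the change was -1.50 ± 0.43 (FDR = 0.0187). miR-369-5p, the other strand of the same hairpin, was far rarer and moved the same way. It had 6.04 and 5.42 TPM in May, against 0.560 and 1.76 TPM in September, 0.860, 2.70, 1.37 and 3.87 TPM in telogen and 0.890 to 1.55 TPM in catagen, a change from May to September of -1.79 ± 0.60 (FDR = 0.0371). Its September values rest on 3 and 9 counts.

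The miR-376 copies lie next to each other in the cluster, and their transcripts are known sites of adenosine-to-inosine editing. miR-376c-3p had 26.4 and 35.7 TPM in May and 6.48 and 7.82 TPM in September, with 18.0, 26.6, 20.2 and 30.0 TPM in telogen and 5.5, 7.47, 10.5 and 8.15 TPM in catagen. miR-376e-3p had 19.8 and 28.7 TPM in May and 7.22 and 7.62 TPM in September, with 14.9, 25.5, 15.7 and 27.1 TPM in telogen and 4.92, 7.73, 5.56 and 8.54 TPM in catagen. For both, every telogen and May library was above every September and catagen library. The changes from May to September were -1.59 ± 0.28 (FDR = 0.00198) for miR-376c-3p and -1.17 ± 0.33 (FDR = 0.0178) for miR-376e-3p. How reads that match several copies were assigned is not given in the sources used here, so the division of counts among the miR-376 copies is uncertain, as it is for the lettered copies of miR-411, miR-487, miR-154, miR-323 and miR-329.

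Larger changes were found among rarer members, some of which passed the filter only through telogen and May libraries. miR-410-3p, near the far end of the cluster, had 13.5 and 14.0 TPM in May and 1.30 and 0.780 TPM in September (7 and 4 counts), with 1.55, 3.15, 2.36 and 9.92 TPM in telogen and 0.870 to 1.56 TPM in catagen. Its May values were above those of all other libraries, and the change was -3.16 ± 0.69 (FDR = 0.00515). The ratio of its counts, May over September, was 9.14 after TMM scaling, with a 95% counting interval of 4.89 to 18.9.

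miR-544-5p had 6.29 and 8.61 TPM in May, 0.370 and 0.590 TPM in September, 1.90, 1.80, 0.790 and 5.08 TPM in telogen and 0.260 to 0.780 TPM in catagen. The September values are 2 and 3 counts, against 26 and 27 in May. The count ratio of May over September was 10.7 after TMM scaling (95% counting interval 4.29 to 34.2) and 15.3 with library totals. The fitted change was -3.37 ± 0.72 (FDR = 0.00486), a value that depends on the prior count of the fit at such low levels.

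miR-411b-5p had 22.0 and 30.3 TPM in May, 3.89 and 5.28 TPM in September, 4.32, 9.69, 6.68 and 20.8 TPM in telogen and 2.22 to 3.61 TPM in catagen. Both May libraries were above every other library, and the change from May to September was -1.98 ± 0.52 (FDR = 0.0118). Its sister copy miR-411a-5p had 77.4 and 102 TPM in May and 49.6 and 53.6 TPM in September, a change of -0.27 ± 0.39 that did not pass the test (FDR = 0.622). Whether the copies differ in their change was not tested.

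Other miRNAs separated the same libraries. The 6 skeletal muscle miRNAs summed to 2113 and 2745 TPM in May and to 3461 and 3389 TPM in September, and neither scaling made the groups overlap. The 6 epidermal miRNAs summed to 88411 and 81375 TPM in May and to 56735 and 72600 TPM in September, groups that overlapped after TMM normalization. The 9 dermal mesenchyme miRNAs summed to 136171 and 140589 TPM in May and to 141278 and 140852 TPM in September. After TMM normalization the sums were 109069 and 109285 CPM in May against 166637 and 154436 CPM in September. Endothelial and leukocyte sums overlapped in TPM and were lower in both May libraries after TMM normalization. Erythrocyte sums overlapped under both scalings. The part of these cell types in the result was not tested.

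The number of calls from May to September depended on single libraries, since each group has 2. It was 3 without the male May library, 2 without the female September library and 5 without the male September library. miR-376c-3p and miR-410-3p were called in all of the alternatives run for them. In the fit with 6 months in place of 4 phases, 7 members were called from May to September, all lower (8.0% of all tested miRNAs were lower and 9.33% higher), with miR-369-5p at FDR = 0.0578. In that fit no member was called between any other pair of adjacent months, where 1.33% of miRNAs were called from December to February and 0.0% in the rest. An unadjusted p under 0.05 was found for 3 members from December to February, 3 from February to March and none in the remaining 3 transitions. From December to February DESeq2 called 2 members higher, miR-376c-3p and miR-376e-3p, where 2.0% of all tested miRNAs were higher. With sex as a block edgeR called 1, miR-376e-3p, where 1.0% were higher.

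**Figure D3:**
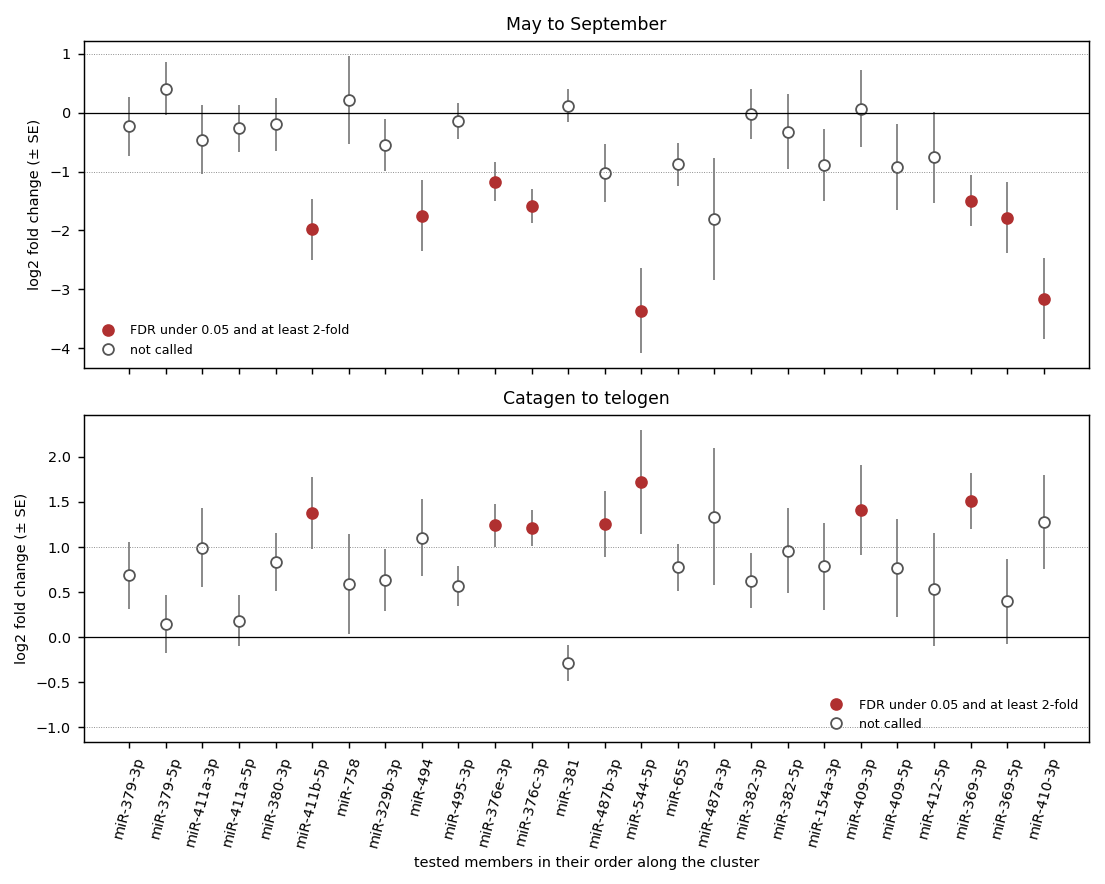
Log2 fold change with its standard error for the 26 tested members, in their order along the cluster, from May to September (top) and from catagen to telogen (bottom). Filled points passed the FDR and 2-fold rule, 8 lower in the upper panel and 7 higher in the lower one, and they lie between members that were not called, such as miR-381.

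From early anagen to catagen, 11 of 26 tested members fell and none rose, where 7.67% of all tested miRNAs fell and 9.0% rose. They were the 8 above together with miR-487b-3p, miR-655 and miR-329b-3p. Like miR-369-5p, miR-410-3p and miR-544-5p, miR-329b-3p had no September or catagen library above the filter's limit. The call of miR-329b-3p was lost in 8 of 20 alternatives and that of miR-655 in 3 of 21. Without the filter 12 of 36 fell (8.24% of all miRNAs), the twelfth being miR-656, the last miRNA of the cluster, at -2.57 ± 0.75 (FDR = 0.0207). The changes of the others ran from -3.20 (miR-544-5p) and -2.85 (miR-410-3p) over -2.57 (miR-411b-5p), -2.33 (miR-494) and -1.97 (miR-369-3p) to -1.05 (miR-655). This comparison shares the May libraries with the preceding one, so it does not add a separate view of May.

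miR-487b-3p had 16.7 and 17.9 TPM in May, 4.81 and 7.04 TPM in September, 6.57, 16.9, 9.23 and 19.1 TPM in telogen and 1.74, 4.12, 3.56 and 6.60 TPM in catagen. Its May libraries were above those of September and catagen, and the male telogen libraries reached the May level. miR-655 had 20.6 and 25.5 TPM in May, 10.4 and 6.84 TPM in September, 11.9, 18.5, 11.6 and 25.6 TPM in telogen and 5.5 to 9.70 TPM in catagen. miR-329b-3p had 8.22 and 5.74 TPM in May, 2.96 and 3.71 TPM in September, 2.42, 4.73, 3.73 and 7.02 TPM in telogen and 1.33 to 2.91 TPM in catagen. From May to catagen the changes were -1.52 ± 0.42 (FDR = 0.0139), -1.05 ± 0.31 (FDR = 0.0179) and -1.13 ± 0.40 (FDR = 0.0401), in the same order.

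From catagen to telogen, the change between regression and rest, 7 of 26 tested members rose and none fell, where 6.33% of all tested miRNAs rose and 4.33% fell. They were miR-544-5p (1.72 ± 0.58, FDR = 0.0364), miR-369-3p (1.51 ± 0.31, FDR = 0.00322), miR-409-3p (1.41 ± 0.50, FDR = 0.0433), miR-411b-5p (1.38 ± 0.40, FDR = 0.0188), miR-487b-3p (1.26 ± 0.36, FDR = 0.0189), miR-376e-3p (1.24 ± 0.24, FDR = 0.00247) and miR-376c-3p (1.21 ± 0.20, FDR = 0.00126). Of these, miR-544-5p, miR-409-3p and miR-411b-5p had no catagen library above the filter's limit. In the fit without the filter 7 of 36 rose, against 5.59% of all miRNAs. The log2 fold change was above 0 there for 34 of 36 members, with a median of 0.90, against 51.9% of all miRNAs and a median of 0.06.

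All 4 telogen libraries were above all 4 catagen libraries for 7 members in TPM, and for 4 after TMM normalization. Those shares are close to the 20.5% and 9.31% of all miRNAs. miR-369-3p, miR-376c-3p and miR-376e-3p were among the 7 members. miR-409-3p had 2.59, 7.21, 4.52 and 15.7 TPM in telogen and 1.45, 1.80, 1.33 and 3.49 TPM in catagen, with 6.29 and 5.74 TPM in May and 5.37 and 3.32 TPM in September. Its female February value was below that of male December, and its call was lost in 10 of 20 alternatives.

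The erythrocyte miRNAs moved with this comparison. Their summed level was 27.9 to 115 TPM in telogen and 5.41 to 26.4 TPM in catagen, 24.6 to 45.9 TPM in May and 16.6 to 28.3 TPM in September, and 1 of the 2, miR-451-5p, was called higher in telogen. The part of blood or of any other cell type in the result was not tested. Single libraries also moved the count of members called, to 4 without the male March, the female November or the female December library and to 11 without the female March library. Within the female libraries the log2 difference of mean levels from catagen to telogen was above 0 for 24 of 36 members (median 0.36), and within the male libraries for 34 of 36 (median 1.02). Of these, 23 were above 0 in both sexes.

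From telogen to early anagen no member was called with edgeR's quasi-likelihood test, where 0.333% of all tested miRNAs rose and 2.0% fell. At an unadjusted p under 0.05 there were 5 members, all higher in May, and DESeq2 called none. They were miR-410-3p (1.58 ± 0.48, FDR = 0.0610), miR-544-5p (1.48 ± 0.48, FDR = 0.0791), miR-369-5p (1.25 ± 0.47, FDR = 0.117), miR-494 (1.23 ± 0.49, FDR = 0.132) and miR-411b-5p (1.19 ± 0.41, FDR = 0.0895). These 5 members were all called when sex entered the fit as a block, where 2.0% of all tested miRNAs rose. Without the male March library 7 were called, the same 5 with miR-409-5p and miR-412-5p, and 5.76% of all tested miRNAs rose. By contrast, miR-376c-3p and miR-376e-3p had changes of 0.20 ± 0.23 and 0.04 ± 0.27 from telogen to May.

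From telogen to mid-anagen 2 of 26 members fell, miR-376c-3p (-1.38 ± 0.26, FDR = 0.00285) and miR-376e-3p (-1.13 ± 0.30, FDR = 0.0171), where 4.67% of all tested miRNAs fell and 4.67% rose. Without the female September library neither was called, without the male one 1 was, and without either female telogen library 4 were. From mid-anagen to catagen no member was called with edgeR or DESeq2 and none had an unadjusted p under 0.05. With edgeR 0.0% of the tested miRNAs were called there. The median change of the 26 members was -0.45, and 0.03 over all tested miRNAs.

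The called members thus differed in their values in telogen. miR-410-3p, miR-544-5p, miR-411b-5p, miR-369-5p and miR-494 were higher in TPM in both May libraries than in each of the other 10. For miR-494 this did not hold after TMM normalization, where the male March library (136.3 CPM) stood just above the female May library (135.5 CPM). For miR-376c-3p and miR-376e-3p the telogen and May libraries overlapped, and all 6 stood above the libraries of September to December. The telogen values of miR-369-3p reached the May range in the male March library, and those of miR-487b-3p in both male telogen libraries. Whether members differ from each other in these courses was not tested.

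Several abundant members showed no change that passed the test. miR-379-5p had 474 and 570.3 TPM in May, 503 and 453 TPM in September, 312, 551, 243 and 1077 TPM in telogen and 312, 354, 349 and 459 TPM in catagen. The male March library stood far above the rest. In TPM both May libraries were above all catagen libraries, and the other groups overlapped. The change between May and September was 0.41 ± 0.45 (FDR = 0.515), with the sign turning to -0.13 when libraries were scaled by their totals, and from catagen to telogen it was 0.15 ± 0.32 (FDR = 0.724).

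miR-381, in the middle of the cluster, varied least over the 12 libraries. It stayed between 11.9 (female November) and 24.2 TPM (male May and male November), and the ratio of its highest to its lowest library was 2.04, against 4.43 for miR-379-5p and 10.7 for miR-494. Its change was 0.12 ± 0.28 from May to September (FDR = 0.774), or -0.41 with library totals, and -0.29 ± 0.20 from catagen to telogen (FDR = 0.264), or 0.07 with library totals. miR-411a-5p and miR-380-3p, the third and the fifth most abundant members, were not called in any comparison with TMM, edgeR and all 12 libraries either. With library totals miR-380-3p was called from catagen to telogen (log2 fold change 1.24, FDR = 0.0192 in edgeR) and from May to catagen (-1.26, FDR = 0.0288), and it was also called from catagen to telogen without the female March library. miR-411a-5p had 43.7, 57.9, 51.8 and 139 TPM in telogen, 77.4 and 102 TPM in May, 49.6 and 53.6 TPM in September and 34.7, 52.8, 61.4 and 46.4 TPM in catagen. miR-380-3p had 18.5, 29.3, 15.7 and 56.4 TPM in telogen, 31.4 and 29.0 TPM in May, 19.8 and 16.6 TPM in September and 8.97, 13.7, 11.1 and 16.5 TPM in catagen. For both, May lay above September and catagen in TPM, and the changes from May to September were -0.27 ± 0.39 (FDR = 0.622) and -0.20 ± 0.44 (FDR = 0.755).

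The scaling of libraries bears on these signs. From May to September the median log2 fold change of all tested miRNAs was 0.07 with TMM and -0.46 with library totals, and from catagen to telogen 0.00 and 0.35. With TMM 22 of 26 tested members were below 0 from May to September, and with library totals 26 of 26. The choice also moves the background of that comparison, from 9.67% of tested miRNAs that rose and 8.67% that fell with TMM to 3.0% and 23.7% with library totals, which called 10 members, all lower. The 4 that turned were miR-379-5p, miR-381, miR-758 (0.22 to -0.30) and miR-409-3p (0.07 to -0.47). Relative to the median of all miRNAs, miR-379-5p stood higher in September under both scalings. The 28 calls of members in phase comparisons kept their direction and their call with library totals, RLE normalization, TMM without the members and DESeq2.

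Within a library, the ratio of a member to miR-379-5p needs no scaling between libraries. Per 100 counts of miR-379-5p, miR-494 had 35.7 and 38.1 in May, 6.0 and 11.0 in September, 9.47 to 15.6 in telogen and 5.89 to 8.10 in catagen. miR-369-3p had 19.6 and 20.5 in May, 4.53 and 6.34 in September, 10.9 to 16.7 in telogen and 4.15 to 5.80 in catagen. May was above every other library for both, and telogen was above catagen.

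For miR-410-3p the ratio was 2.46 and 2.85 in May, 0.173 and 0.258 in September, 0.499 to 0.969 in telogen and 0.278 to 0.446 in catagen. miR-376c-3p reached 5.56 and 6.26 in May and 2.79 to 8.32 in telogen, against 1.29 and 1.73 in September and 1.76 to 3.00 in catagen, so that May lay within the telogen range. For miR-381 the ratio was 4.25 and 4.43 in May, 2.98 and 4.23 in September, 2.11 to 7.03 in telogen and 3.80 to 6.84 in catagen. May was narrowly above September, and the other phases overlapped. In the male March library, where miR-379-5p itself was highest, the ratios of miR-376c-3p (2.79) and miR-381 (2.11) were the lowest of telogen.

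**Figure D4:**
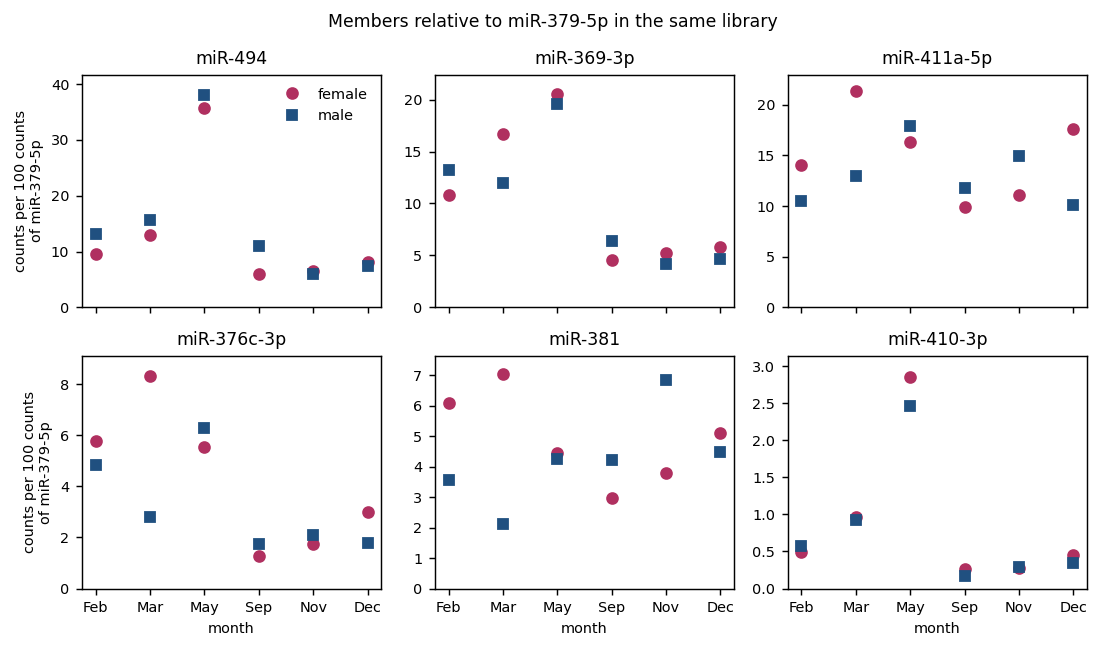
Counts of 6 members per 100 counts of miR-379-5p in the same library, by month, with female libraries as circles and male libraries as squares. miR-494, miR-369-3p and miR-410-3p peak in both May libraries, miR-376c-3p is high from February to May, and for miR-411a-5p and miR-381 May lies above September but overlaps catagen and telogen.

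The members called did not form one stretch of the cluster. Those that fell from May to September sit at positions 4 (miR-411b), 8 (miR-494), 11 and 12 (miR-376e and miR-376c), 17 (miR-544), 27 (miR-369) and 28 (miR-410) of the 30 precursors. Between them lie tested members that were not called, such as miR-758 (position 6), miR-495-3p (position 10, -0.14 ± 0.31), miR-381 (position 15) and both strands of miR-382 (position 20). The first 3 precursors, miR-379, miR-411a and miR-380, gave no call between phases in the main fit. That fit used TMM, edgeR, the 5 CPM filter, all 12 libraries and no block for sex. With TMM and edgeR, miR-411a-3p was called from May to catagen with sex as a block. The same call was made with at least 10 counts required in all 12 libraries and in the fit on the compared groups only. In other fits miR-411a-3p was called from May to catagen and from catagen to telogen by DESeq2, and miR-379-3p, miR-380-3p and miR-411a-3p were called from May to catagen with library totals.

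Some hairpins were measured on both strands, and the ratio of the strands within a library does not depend on scaling. For the cluster, 4 precursors had a mean of at least 10 counts in each arm, among 87 precursors tested with limma on log2((5p count + 1)/(3p count + 1)). From catagen to telogen the 5p share fell for 3 of the 4, with miR-409 at -0.96 ± 0.31 (SE, FDR = 0.0191), miR-411a at -0.72 ± 0.27 (FDR = 0.0333) and miR-379 at -0.56 ± 0.22 (FDR = 0.0443). Calls rested on an FDR below 0.05 alone, with no minimum change, and 49.4% of all precursors tested were called there.

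The ratio of miR-379-5p to miR-379-3p was 45.1, 42.1, 36.4 and 40.9 in telogen, 29.3 and 39.7 in May, 54.4 and 51.5 in September and 49.1, 91.7, 56.0 and 57.6 in catagen. All September and catagen libraries were above all telogen and May libraries. For miR-411a it was 7.91, 4.08, 6.44 and 4.36 in telogen, 4.16 and 5.25 in May, 5.58 and 5.17 in September and 10.9, 12.1, 10.6 and 5.43 in catagen, where the male December library lay among those of the other phases. For miR-409, whose 3p arm had as few as 5 counts, it was 1.80, 1.88, 1.04 and 2.71 in telogen, 4.77 and 4.67 in May, 1.76 and 3.41 in September and 3.80, 4.14, 5.83 and 2.06 in catagen.

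From May to catagen the ratio rose for miR-411a (0.95 ± 0.33, FDR = 0.0252) and miR-379 (0.82 ± 0.27, FDR = 0.0219), where 41.4% of precursors were called. From telogen to May it rose for miR-409 (1.39 ± 0.38, FDR = 0.0262), where 11.5% were called. No cluster precursor was called from May to September (37.9% of all precursors), from September to catagen (0.0%) or from telogen to September (39.1%), and miR-382 was called in no comparison. At an unadjusted p under 0.05 there was miR-409 from May to September and miR-411a from September to catagen. The number of calls over the phase comparisons, 6 in all, was 2 without the female May or without the male November library.

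**Figure D5:**
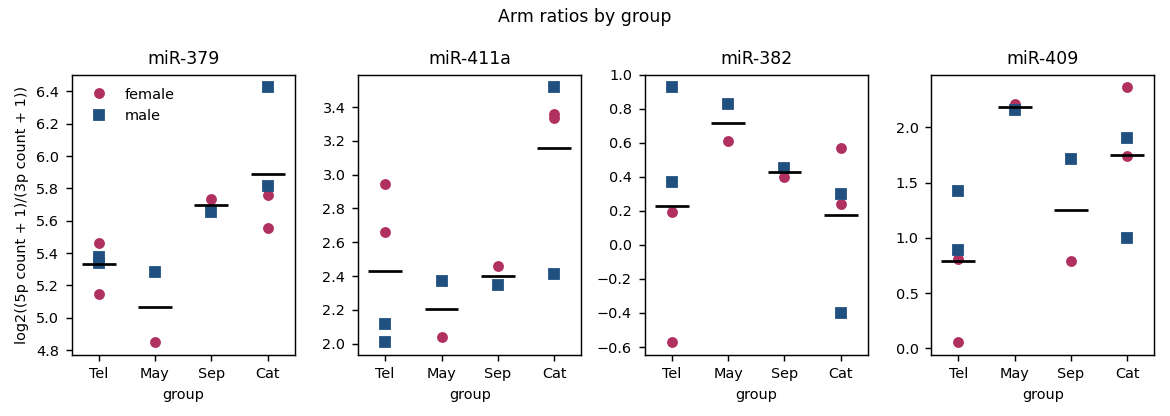
Log2 ratio of 5p to 3p counts (1 added to each) for the 4 cluster precursors tested, by group (Tel, telogen; Sep, September; Cat, catagen), with circles for female and squares for male libraries and a bar at the group mean. For miR-379 all September and catagen libraries lie above all telogen and May libraries, while for miR-382 both May libraries lie above those of September and catagen and within the range of telogen.

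In 5 of the 6 months the male library held a larger share of its counts in the cluster than the female one, and in September the female library did (0.0767% against 0.0751%). In March the male library was above the female library for 36 of 36 members in TPM, against 68.4% of all miRNAs, and after TMM normalization again for 36 of 36, against 53.2%. In February it was above for 34 of 36 members (66.5%), and for 33 after TMM normalization (51.9%). Both male telogen libraries were above both female ones for 32 of 36 members (45.5%), and for 31 after TMM normalization (33.0%). The male March library was the highest of all 12 for 21 members (18.1%). In May the male library was above the female one for 21 of 36 (44.9%), in September for 25 (55.1%), in November for 27 (51.1%) and in December for 23 (35.6%).

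Tested over all months with month as a term, no member was called between the sexes with edgeR, RLE or DESeq2, and no tested miRNA was (0.0%). The log2 fold change, male over female, was above 0 for 26 of 26 tested members, with a median of 0.50, against 39.7% of the 300 tested miRNAs and a median of -0.04. In the fit without the filter it was above 0 for 36 of 36, against 60.1%. 7 tested members had an unadjusted p under 0.05. Those with the smallest were miR-487a-3p (1.57 ± 0.42, FDR = 0.267), miR-487b-3p (0.72 ± 0.21, FDR = 0.267) and miR-411b-5p (0.70 ± 0.21, FDR = 0.267). Each month has 1 library of each sex, so within a month a sex difference and a difference between the goats sampled cannot be told apart.

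The sex difference in telogen was also set against that in catagen. No member was called with edgeR (1.33% of tested miRNAs were), and 6 had an unadjusted p under 0.05. DESeq2 called 1 higher, miR-494, where 3.0% of all tested miRNAs were higher and 1.67% lower. The largest differences of that kind were those of miR-409-5p (2.18 ± 0.69, FDR = 0.129), miR-382-5p (1.69 ± 0.66, FDR = 0.188) and miR-494 (1.53 ± 0.51, FDR = 0.129), and miR-379-5p stood at 1.01 ± 0.39 (FDR = 0.188). Without the male February library, the male March library alone stood for male telogen. Calls from that fit are therefore not read as a result about the members.

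The male March library stood apart in other miRNAs as well. Its erythrocyte sum, 115 TPM, was the highest of the 12 libraries, against 27.9 TPM in the female March, 28.2 TPM in the female February and 52.3 TPM in the male February library. Neither erythrocyte miRNA was at 0 in any library. Its skeletal muscle sum, 1902 TPM, was the lowest, also after TMM normalization (1544 CPM). Its epidermal sum, 96687 TPM, was the highest in TPM only. After TMM normalization the epidermal sum was 78489 CPM, below the 103765 CPM of the female November library. The TMM factor of this library was 1.23. What these values have to do with its cluster level was not tested, and without this library the summed cluster level in telogen lay between 538 and 1049 TPM.

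Upstream of miR-379, the DLK1-DIO3 region holds a smaller group of imprinted miRNAs, some of which are antisense to the retrotransposon-derived gene RTL1 and known to silence it. 8 mature miRNAs of that group were found (both strands of miR-127, miR-136 and miR-493, miR-432-5p and miR-433), of which 7 were tested. They summed to 525 and 575 TPM in May, 364 and 461 TPM in September, 244 to 352 TPM in catagen and 274 to 1028 TPM in telogen, again with the top in male March. From May to September 1 of 7 fell, miR-136-3p (-1.89 ± 0.50, FDR = 0.0126). From catagen to telogen 2 rose, miR-136-5p (1.68 ± 0.29, FDR = 0.00138) and miR-136-3p (1.47 ± 0.36, FDR = 0.00755). From May to catagen 3 fell (both strands of miR-136 and miR-432-5p) and from telogen to September 2 fell.

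miR-127-3p led this group as miR-379-5p led the cluster. It had 245 and 261 TPM in May, 220 and 272 TPM in September, 163, 255, 141 and 555 TPM in telogen and 165, 218, 163 and 206 TPM in catagen, with a change from May to September of 0.48 ± 0.43 (FDR = 0.413). Its male March value was again the highest. miR-136-3p had 51.7 and 68.3 TPM in May, 10.4 and 12.1 TPM in September, 17.8, 35.8, 31.0 and 82.7 TPM in telogen and 6.66 to 13.9 TPM in catagen, and its May and September libraries did not overlap.

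The 10 members below the filter were miR-134, miR-154b-5p, miR-323a-3p, miR-323b, miR-376a, miR-376b-5p, miR-485-3p, miR-485-5p, miR-543-3p and miR-656. miR-134, known for limiting the size of dendritic spines in neurons, had 0.590 to 4.11 TPM in telogen, 1.45 and 1.91 TPM in May, 0.740 and 1.56 TPM in September and 0.870 to 2.58 TPM in catagen, and its groups overlapped. miR-656 had 3.38 and 4.78 TPM in May (14 and 15 counts), 0.560 and 0.780 TPM in September (3 and 4 counts), 1.21, 1.80, 0.390 and 3.87 TPM in telogen and 0 to 1.03 TPM in catagen. It was at 0 in the female November library, which allows up to 0.868 TPM. Of these 10 in the fit without the filter, it was the sole call, from May to catagen. At counts this low, smaller differences between the phases were not detectable.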

How the data were processed

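Small RNA of secondary hair follicles was sequenced in 12 libraries. Per the labels and the study's methods, reads were trimmed by the authors and aligned to goat assembly CHIR_2.0 (Bowtie 0.12.9). The authors named known miRNAs and predicted others with miREvo and mirDeep2, and deposited per library a count for each mature miRNA and a TPM value. The deposited TPM is the share of the library's miRNA counts, equal to CPM computed from the counts (within 0.00499), and keeps no information beyond the count. How reads matching several miRNAs were counted is not given in the sources used here.

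The counts of the 376 miRNAs were tested with edgeR 4.0.16 (quasi-likelihood F test, TMM normalization) in R 4.3.3, with 1 fit over the 4 phases, 1 over the 6 months and 1 with month and sex. Filters and call rules are given at their first use, with no minimum fold change for arm ratios. DESeq2 1.42.0 was an alternative. Ratios of 5p to 3p counts were tested with limma 3.58.1 on precursors with a mean of at least 10 counts in both arms. The scripts were tested on simulated counts. No 2 libraries of a month agreed within sampling noise (chi-square per degree of freedom 75.5 to 734), so no pair was taken as a single library. The members, the lists and the tests were chosen with earlier results of these data known.

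Values per library are given for the 5 most abundant members, for every member called and for precursors with a called arm ratio, with full statistics for up to 5 members in each direction of a comparison. Other members named, such as miR-381, miR-134 and miR-758, were chosen after their values were seen. Alternatives were library totals, RLE, TMM without the members, DESeq2, other filters, fits on the compared groups only, a block for sex, calls by FDR alone and leaving out each library. Mature sequences were not used here.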

Additional observations from a re-analysis of the deposited data

Results flagged for a closer look

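In the 4 telogen libraries, 2 members had a single library far from the other 3 by Dixon's criterion, the male March library in both cases. miR-411a-5p had 139 TPM there, against 43.7 to 57.9 TPM in the other telogen libraries. miR-758 had 13.6 TPM there (56 counts), against 2.42 to 3.15 TPM in the others. Of 76 groups of 4 libraries examined these were the 2 that passed, and chance alone passes about 1 in 20.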

How the results depend on the processing

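The 28 calls of members between phases were kept in 521 of 572 refits, lost in 51 and reversed in none. That total includes the rule of FDR alone, which is looser than the call rule and could not lose a call (28 of 28 kept). Refits in which the filter left the member out are not in it. With at least 10 counts required in all libraries, 17 of the 28 calls could be refitted, and 17 were kept. With library totals in place of TMM, 13 members rose from catagen to telogen (14.3% of all tested miRNAs rose), 18 fell from May to catagen (24.0% fell) and 4 fell from telogen to September (12.7% fell). Of the 16 members with at least 10 counts in all libraries, 5 fell from May to September (11.7% of 266 miRNAs fell). From May to catagen 7 of them fell (8.27% of 266 miRNAs fell). With sex as a replicate block, 5 members rose from telogen to May (2.0% of all tested miRNAs rose). From May to September 9 fell (9.0% fell), and from December to February 1 rose (1.0% rose). From May to catagen 14 fell (8.67% fell), with miR-409-5p, miR-154a-3p and miR-411a-3p added. The block pairs libraries by sex within the study's design, since the labels give no replicate numbers, and it ended no call. DESeq2 called 1 member higher for the sex difference in telogen against catagen (3.0% of all tested miRNAs were higher). Without a filter on low counts 3 arm ratios were called. The summed level of the cluster from May to September had a log2 difference of -0.23 with TMM, of -1.45 without miR-379-5p in TPM and, computed after the data were seen, of -0.92 without it with TMM.

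Leaving out 1 library at a time gave 2 to 10 members called from May to September (10 without the male March library), 4 to 11 from catagen to telogen, 0 to 7 from telogen to May, 0 from September to catagen, 6 to 16 from May to catagen (16 without the female March library), 0 to 4 from telogen to September, 0 between the sexes and 0 to 5 for the sex difference by phase. It gave 2 to 6 arm ratios called. Between adjacent months, an alternative added after the data were seen, it gave 2 to 21 (21 without the male March library, when 8 members rose from March to May and 3 from December to February). The share of all tested miRNAs that was called also moved when a library was left out. These ranges therefore show only how far the calls depend on single libraries. Depth limits the 20 members that fell below 10 counts in some library, and the cause of each change was not tested.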
